A study of Homo sapiens with 4 samples.

Results

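The deubiquitinase genes were followed through RNA immunoprecipitation sequencing (RIP-seq) of NSUN2, in which RNA pulled down with an antibody is sequenced beside the RNA of the lysate (the input). Members were the protein-coding genes whose symbol starts with USP and a digit, OTUD, OTUB, UCHL or JOSD, or is ATXN3, CYLD or BAP1, and on which a peak was called. There were 60 such genes among 12397 protein-coding genes with a peak. USP6NL was taken in by its symbol although it encodes a Rab GTPase-activating protein and no deubiquitinase, and it held 15 of the merged peaks below.

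The samples were wild-type PANC-1 cells, an established line from a human pancreatic ductal adenocarcinoma. They were given 30 mM sodium lactate or ddH2O, the vehicle, for 24 h. Each condition had 1 anti-NSUN2 IP library and 1 input library, 4 libraries in all, so no value has a replicate error and no difference between conditions could be tested across cultures. All intervals given are at the 95% level and cover counting error only.

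Deubiquitinases are proteases that cut ubiquitin from proteins or trim ubiquitin chains, and so oppose the E1, E2 and E3 enzymes that attach it. The ubiquitin-specific proteases (USP) form the largest family, beside the ovarian tumour (OTU), ubiquitin C-terminal hydrolase (UCH) and Josephin families, and many act on the stability of signalling, DNA repair and chromatin proteins. NSUN2 is a methyltransferase that places m5C on tRNA and on some mRNA, and a peak marks a stretch of RNA that was more abundant in its IP than in the input.

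Of the 60 genes, 53 had a peak in both conditions. A lactate peak lay on 54 and a ddH2O peak on 59, against 9569 and 11870 of all 12397 protein-coding genes. The share of all genes with both was not computed. USP6 had a peak with lactate alone. Its window held 3 reads with lactate and 1 with ddH2O, and USP6 shares much of its sequence with USP32, so its reads are uncertain. USP16, USP21, USP30, USP44, USP51 and OTUD6B had peaks with ddH2O alone. In that order their windows held 243, 4, 1, 0, 9 and 26 reads with lactate. With ddH2O they held 578, 28, 11, 3, 19 and 74. Only USP44 thus had no read with lactate. RefSeq lists 95 symbols that meet the rule, and 35 of them had no peak. These were 25 genes of the USP17L multicopy family and OTUD1, OTUD6A, UCHL1, UCHL5, USP5, USP9Y, USP18, USP26, USP29 and USP50. UCHL1, a hydrolase best known from neurons, and UCHL5, which sits on the proteasome, thus had no called peak in these lists.

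The peak sequences themselves were not analysed here, because no genome of their build was used. RefSeq start sequences (build GRCh38.p14) were held for 47 of the 60 genes, and on 7 genes a peak reached the first 50 transcribed bases (OTUD4, USP3, USP14, USP32, USP40, USP49 and USP54). These sequences show which RNA ends lay under a peak. The 5 stretches of 26 to 30 bases that a peak covered are printed from the 5' to the 3' end on the transcript strand. CNGGG, a motif described for m5C sites that depend on NSUN2, was searched on the transcript strand and is marked in capitals where present.
USP14 (chr18:158557-158586, plus strand, from the start site): gaatgagactcgtcgcaccgaagccgccgc
USP32 (chr17:60392104-60392133, minus strand, from the start site): cgtgatccggcatggaggcggtggcggcga
USP40 (chr2:233566733-233566758, minus strand, from base 25): aacatggcggcgcccagttggggcgg
USP49 (chr6:41895328-41895357, minus strand, from base 19): ccctggtgacagctcgcgcgtgctgatgat
USP54 (chr10:73601592-73601621, minus strand, from the start site): agacctgctctagacgctgactgaatgttt

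None of the 5 stretches held CNGGG on the transcript strand. On the opposite strand, 1 match lay in the USP40 stretch and 1 in that of USP49. Over the table's 35116 start sequences, 20.6% held CNGGG within the first 30 bases on the transcript strand and 19.9% on the other. The stretches of USP40 (bases 25 to 50) and USP49 (bases 19 to 48) lie partly outside those 30 bases. The ddH2O list had a peak at each of the 5 starts, and the lactate list at that of USP54. The fold over input, which is the peak caller's ratio of IP over input, was 1.82 at USP49, 2.43 at USP32, 3.03 at USP40 and 4.40 at USP14. At USP54 it was 18.2 with ddH2O and 3.73 with lactate. The peak caller's q-value was below 0.05 at USP14 (0.001) and USP54 (1.6e-35 with ddH2O, 0.0077 with lactate). It was not below 0.05 at USP40 (0.14), USP32 (0.82) and USP49. The USP54 stretch is annotated as intron in the deposited lists and is the start of a transcript in RefSeq. Its window held 21 reads with lactate and 38 with ddH2O, and the log2 ratio of -0.38 (interval -1.25 to 0.40) did not leave out no change.

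The authors' lists held 255 deubiquitinase peaks with lactate and 503 with ddH2O. That ratio of 1.97 stood beside 1.92 for all protein-coding genes, on which 40883 and 78491 peaks were called. The smaller number with lactate was therefore shared by the lists as a whole. The median fold over input on deubiquitinase genes was 3.27 with lactate (quartiles 2.73 and 4.79) and 3.03 with ddH2O (2.43 and 4.85), against 3.24 and 3.03 on all protein-coding genes. A q-value below 0.05 was given to 47.8% of the deubiquitinase peaks with lactate (Wilson interval 41.8 to 54.0%) and to 52.1% with ddH2O (47.7 to 56.4%), against 44.6% and 50.9%. Peak strength on these genes was thus close to that of the lists around them.

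**Figure D1:**
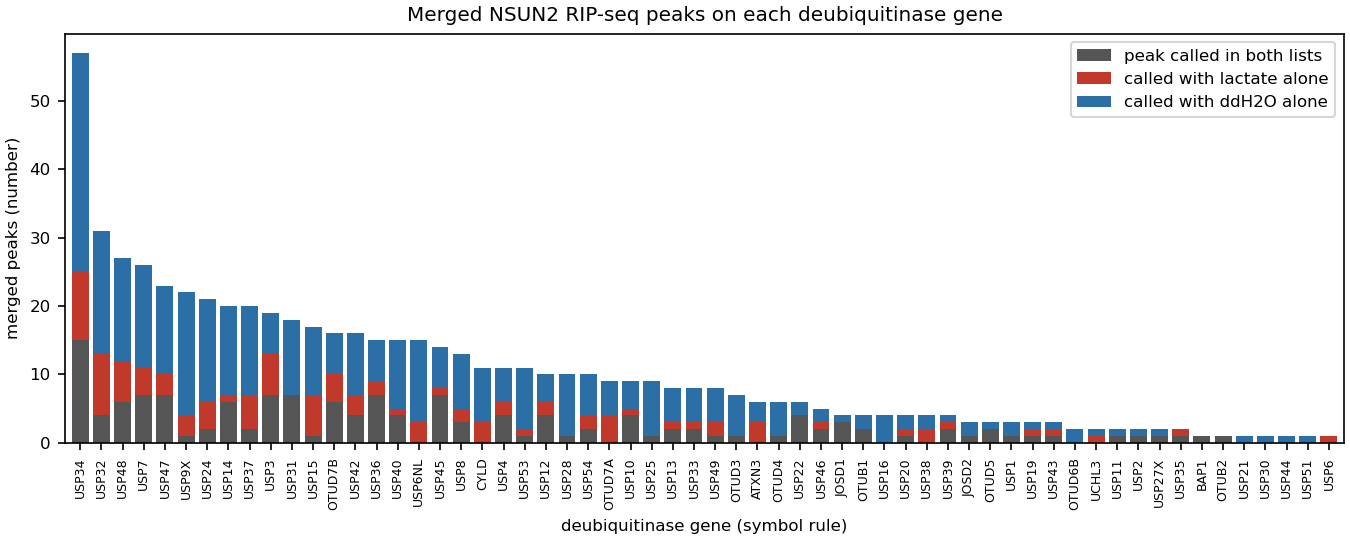
Number of merged peaks (y axis) on each of the 60 genes (x axis), stacked by the list in which a peak was called. USP34 leads with 57, and the ddH2O list alone gave 356 of the 607 merged peaks.

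The annotated transcript region was where deubiquitinase peaks stood apart from the lists. With lactate, 125 peaks lay in introns (49.0%, 42.9 to 55.1%) against 61.5% of all protein-coding peaks, 66 in exons (25.9%, 20.9 to 31.6%) against 18.8%, 62 in 3' UTRs (24.3%, 19.5 to 29.9%) against 18.1%, and 2 in 5' UTRs. With ddH2O, 227 lay in introns (45.1%, 40.8 to 49.5%) against 61.2%, 162 in exons (32.2%, 28.3 to 36.4%) against 21.0%, 103 in 3' UTRs (20.5%, 17.2 to 24.2%) against 15.8%, and 11 in 5' UTRs. In both lists the interval for introns lay below the share of all protein-coding genes, and the intervals for exons and 3' UTRs lay above it. Peaks of 1 gene share its RNA and are not independent, so these intervals are too narrow by an amount that was not measured. USP7 alone held 10 of the 62 peaks in 3' UTRs with lactate, and 14 of the 103 with ddH2O. Shares without USP7 were not computed, so whether the 3' UTR difference holds across the other genes was not tested. Among peaks with a q-value below 0.05 the intron share was 33.6% with lactate and 35.5% with ddH2O, against 48.4% and 50.2% in the lists. At that limit the exon share was 30.3% with lactate (22.9 to 39.0%, against 23.5%) and 35.9% with ddH2O (30.3 to 41.9%, against 25.8%), and the 3' UTR share was 36.1% (28.1 to 44.9%, against 26.5%) and 26.3% (21.4 to 32.0%, against 21.9%). The intervals for exons with lactate and for 3' UTRs with ddH2O then held the share of the lists.

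**Figure D2:**
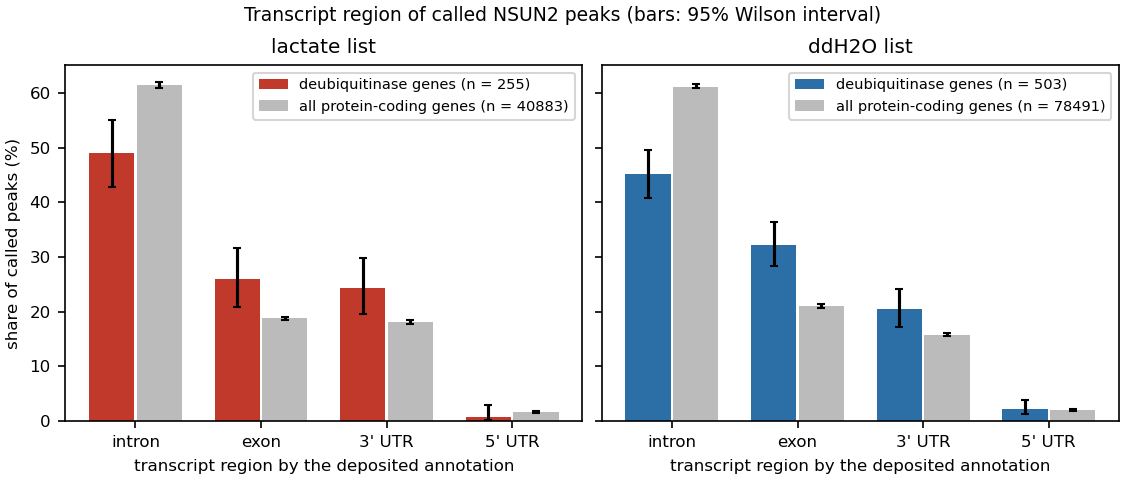
Share of called peaks (y axis, %) by annotated transcript region (x axis), with lactate on the left and ddH2O on the right, and error bars for the 95% Wilson interval. The coloured bars for deubiquitinase genes are lower than the grey bars of all protein-coding genes in introns and higher in exons and 3' UTRs.

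Several of the strongest peaks annotated as 3' UTR lay far inside the gene, and others lay near its end. USP7, which removes ubiquitin from MDM2 and p53, had the strongest deubiquitinase peak with lactate, at chr16:8915271-8915703, with a fold over input of 34.6. It lay 23.4 kb from the gene's 3' end in RefSeq. The same place had a fold of 23.7 with ddH2O, and a second USP7 peak with a fold of 23.4 with lactate lay 25.0 kb from the end. In USP36, a nucleolar deubiquitinase, the peak at chr17:78803201-78803792 had a fold of 26.0 with lactate and lay 16.1 kb from the end, and its ddH2O counterpart had a fold of 19.2. Nearer to the 3' end, in USP42, the peak at chr7:6154907-6155359 had a fold of 30.1 with lactate and lay 6.43 kb from the end, and its ddH2O counterpart had a fold of 7.20. With ddH2O a second USP36 peak with a fold of 18.2 lay 0.219 kb from the end, and a USP31 peak with a fold of 16.3 lay 1.40 kb from it.

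Of the 61 lactate peaks annotated as 3' UTR within the RefSeq span, 25 lay more than 10 kb from the gene's 3' end (41.0%, 29.5 to 53.5%), against 21.8% of all such peaks. With ddH2O it was 41 of 102 (40.2%, 31.2 to 49.9%) against 28.2%. The distance of 10 kb was chosen after the values were seen. These peaks had a median fold of 4.28 with lactate and 4.93 with ddH2O, against 3.35 and 3.05 for those nearer the end, whereas over all protein-coding genes the medians were 3.64 and 3.64 with lactate and 3.30 and 3.58 with ddH2O. Many of the peaks past 10 kb lay on USP7, USP3 and USP36. Peaks of the same gene are not independent, so the intervals are too narrow, and shares without these genes were not computed. Deubiquitinase genes are longer than most, with a median span of 63.4 kb against 36.9 kb, and the part of length in these shares was not tested.

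**Figure D3:**
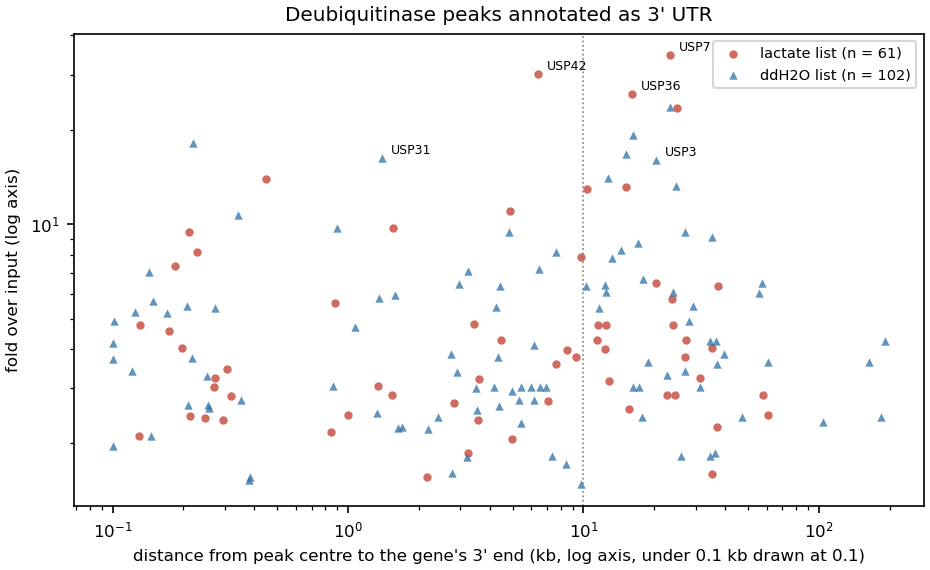
Fold over input (y axis, log scale) of deubiquitinase peaks annotated as 3' UTR, against the distance of the peak centre from the gene's 3' end in kb (x axis, log scale, with distances under 0.1 kb drawn at 0.1), for the lactate list (circles) and the ddH2O list (triangles). The dotted line stands at 10 kb, and the strongest USP7 and USP36 peaks lie to its right.

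The other leading peaks lay in exons and introns. In USP34, a very large enzyme linked to Wnt signalling, the exon peak at chr2:61347725-61348793 had a fold of 35.8 with ddH2O and 9.12 with lactate, and its window held 39 reads with lactate and 120 with ddH2O. In USP47, which acts on DNA polymerase beta, an exon peak at chr11:11942437-11943023 had a fold of 23.3 with lactate and 14.2 with ddH2O, with 97 and 218 reads. In OTUD7B (Cezanne), an enzyme of the OTU family, an intron peak at chr1:149956701-149957070 had a fold of 20.9 with ddH2O and 6.87 with lactate, with 21 reads with lactate and 43 with ddH2O. None of these 3 windows passed the call described next. In USP34 and OTUD7B a large difference in fold over input thus stood beside a smaller one between the IP libraries. The input reads of the windows were not used here.

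For the comparison of conditions the authors merged the lists, took the read density of each IP library over 2000 bases centred on every merged peak, and rescaled the densities with MAnorm. The deubiquitinase genes had 607 of 116484 merged peaks, of which 146 came from both lists, 105 from the lactate list and 356 from the ddH2O list. The median window held 5 reads with lactate and 7 with ddH2O, and 34.4% of windows held at least 20 reads over both libraries. A window of a neighbouring peak was shared in part by 51.4% of them, so neighbours can count the same reads. A merged peak was called when the log2 ratio of the rescaled densities, lactate over ddH2O, was past 2-fold and its exact Clopper-Pearson interval left out no change. The windows outside MT-RNR2 and MALAT1, which took most reads of the IP libraries, summed to 1945000 reads with lactate and 3536821 with ddH2O, a ratio of 1.82. Scaling by these sums in place of the authors' rescaling moved the median over all merged peaks from -0.50 to 0.07, and counts of calls are given under both scalings, the second called the sums. The sums over all windows, with MT-RNR2 and MALAT1 kept, were nearly equal, 9756055 with lactate and 9553834 with ddH2O. A difference in RNA amount and a difference in binding cannot be told apart from IP reads.

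Of the 607 merged peaks, 19 on 14 genes were called higher with lactate (3.13%), against a background of 5.69% of the merged peaks on protein-coding genes (5.61% of all). Lower with lactate were 86 on 35 genes (14.2%), against a background of 15.6% on protein-coding genes (15.9% of all). With the sums as the scale, 73 were higher (12.0%), against 14.0% on protein-coding genes (13.8% of all), and 26 were lower (4.28%), against 4.85% (4.84% of all). With the whole sums, MT-RNR2 and MALAT1 kept, a scale chosen after seeing the data, 15 were higher (2.47%, against 4.36%) and 127 lower (20.9%, against 21.2%). The excess of lower over higher calls thus turned when those 2 genes were left out of the scale and not otherwise, in the deubiquitinase genes as in the background. The median log2 ratio of the deubiquitinase merged peaks was -0.40 (-0.20 with the 148 windows at 0 reads in a library set at their bound), beside -0.46 for protein-coding genes. It was 0.15 with the sums, beside 0.12. All 19 higher calls, and 26 of the 86 lower calls, were made under both scalings. The sums add 0.86 to every log2 ratio, where the authors' rescaling added 0.05 at the median density. At the densities of the called windows a higher call could thus only be kept and a lower call only lost. That the higher calls were kept is therefore no support for them.

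**Figure D4:**
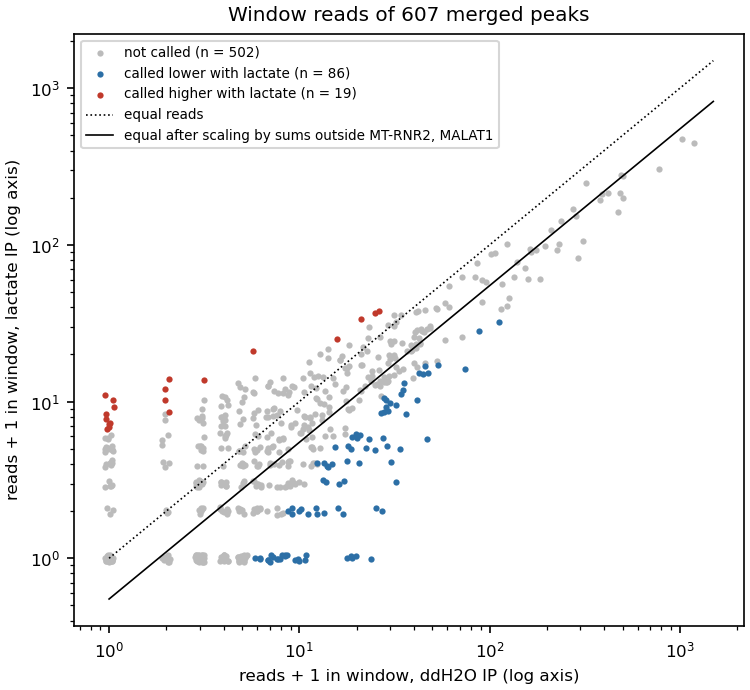
Reads plus 1 in each merged peak's window with lactate (y axis) against ddH2O (x axis), both on log scales, for the 607 merged peaks, with a small random shift so that equal points can be seen. Red points were called higher and blue points lower with lactate, and the windows with most reads lie near the solid line of equal values after scaling by the sums outside MT-RNR2 and MALAT1.

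The windows with the most reads differed by less than 2-fold between conditions with the authors' rescaling and with the sums. USP1, which acts on FANCD2 and PCNA in DNA repair, had the largest at chr1:62444588-62445117 in an exon, with 442 reads with lactate and 1180 with ddH2O. Its log2 ratio was -0.19 (-0.35 to -0.03), and -0.55 with the sums. USP22, the deubiquitinase of the SAGA chromatin complex, followed at chr17:20999536-21000201 in the 3' UTR, with 497 and 1049 reads and a ratio of 0.15 (-0.01 to 0.31). The end of this window overlaps the span of another RefSeq gene, LOC124900389.

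USP8, an endosomal enzyme that acts on receptor sorting, had 312 reads with lactate and 796 with ddH2O in an exon window and a ratio of -0.21 (-0.41 to -0.02). The 3' UTR window at the end of USP7 held 268 and 484 reads, with a ratio of 0.21 (-0.01 to 0.43). The largest USP34 window, in an exon at chr2:61405801-61406296, held 273 and 476 reads, with a ratio of 0.26 (0.04 to 0.48). BAP1, a nuclear deubiquitinase and tumour suppressor, had a single merged peak, at chr3:52400898-52402391, with 219 and 486 reads and a ratio of -0.11 (-0.35 to 0.12). Its fold over input was nearly the same in both lists, 13.9 with lactate and 13.0 with ddH2O. None of these 6 windows passed the 2-fold limit, and the 50 largest deubiquitinase windows, with at least 88 reads each, held 2 calls, both lower, and 0 with the sums. The share called among all protein-coding windows of that size was not computed, so these counts have no background.

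Of the 19 higher calls, 18 lay in introns (94.7%, against 85.9% over all protein-coding genes), and most rested on few reads. With the sums it was 56 of 73 (76.7%, against 83.0%). The largest was in USP3, a histone deubiquitinase, at chr15:63577870-63578529, with 39 reads with lactate and 25 with ddH2O and a log2 ratio of 1.09 (0.35 to 1.90). A neighbouring USP3 peak at chr15:63577536-63577762 shares its window in part and had 37 and 25 reads (1.01, 0.26 to 1.83). In USP25, which KEGG places in IL-17 signalling, the window at chr21:15782672-15783362 held 34 and 21 reads (1.11, 0.30 to 1.99). In these 3 windows the lactate IP had more reads although its sum outside MT-RNR2 and MALAT1 was smaller.

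A USP34 intron window at chr2:61305831-61306668 held 25 reads with lactate and 14 with ddH2O (1.15, 0.19 to 2.25). A USP47 intron window at chr11:11853902-11854115 held 19 and 5 reads (1.95, 0.67 to 3.91). These 5 are the higher calls with at least 20 reads. The remaining 14 had fewer, and 9 of the 19 had 0 reads with ddH2O.

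The next in reads were USP37, which acts on cyclin A, with 13 and 1 reads (2.84, 1.00 to 9.14), USP20 with 12 and 2 (2.19, 0.49 to 5.86) and USP4 with 11 and 1 (2.60, 0.69 to 8.90), all in introns. UCHL3, a small hydrolase that also acts on NEDD8, had an intron window at chr13:75603113-75603357 with 10 reads with lactate and 0 with ddH2O. Against a floor of 3 reads in the window it was at least 3.15-fold higher, or at least 6.06-fold with the sums. Its other merged peak, in an exon, had 1 and 7 reads and was not called. The single higher call outside introns was an exon window of USP37 with 7 reads with lactate and 0 with ddH2O.

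The lower calls were spread over introns (33 of 304 merged peaks, 10.9%, against 15.0% on protein-coding genes), exons (30 of 179, 16.8%, against 17.6%) and 3' UTRs (22 of 113, 19.5%, against 15.4%), with 1 of 11 in 5' UTRs. Higher calls made up 5.92% of the intron windows against 7.62%, 0.559% of exon windows against 2.02%, and 0 of 113 in 3' UTRs against 2.48%, where 0 allows a share of up to 3.29% by the Wilson interval. The interval of the lower 3' UTR share, 13.2 to 27.7%, held the background. With the sums the counts turned in introns, with 56 higher (18.4%, against 18.1%) and 9 lower (2.96%, against 4.19%). Exons then had 10 higher (5.59%, against 6.32%) and 9 lower (5.03%, against 6.34%), and 3' UTRs had 7 higher (6.19%, against 7.02%) and 8 lower (7.08%, against 5.74%). Among windows with at least 20 reads, 5 of 209 were higher (2.39%, against 6.16%) and 41 lower (19.6%, 14.8 to 25.5%, against 16.1%). With the sums the same windows gave 17 higher (8.13%, against 14.4%) and 15 lower (7.18%, against 7.11%), so the excess of lower calls was not there.

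**Figure D5:**
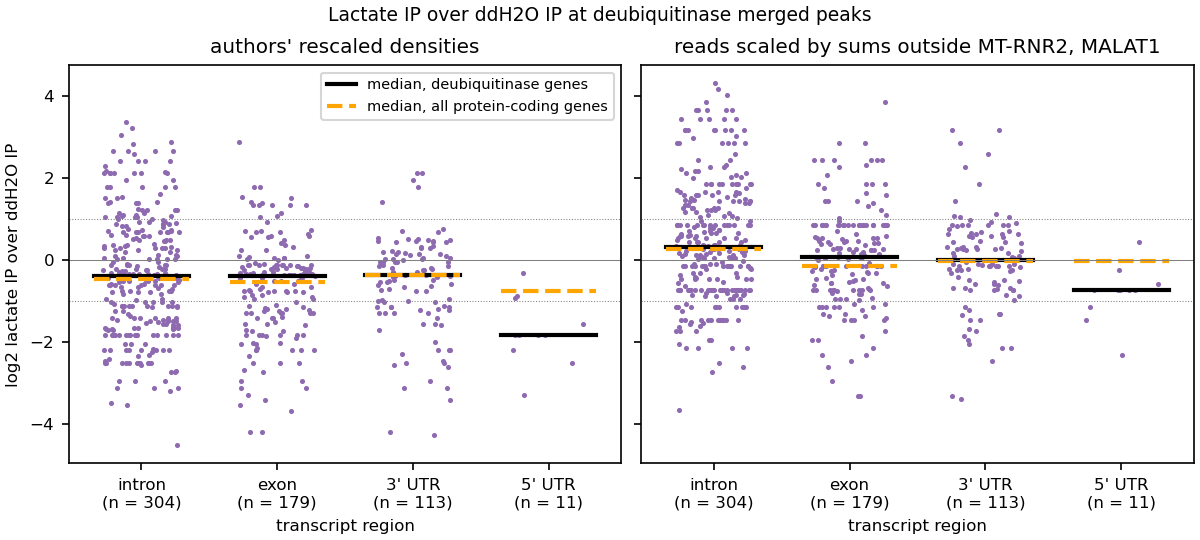
Log2 ratio of lactate IP over ddH2O IP (y axis) of each deubiquitinase merged peak by transcript region (x axis), from the authors' rescaled densities on the left and with the sums outside MT-RNR2 and MALAT1 on the right, with points spread sideways at random. Black lines are deubiquitinase medians, orange dashed lines those of all protein-coding genes, and dotted lines mark 2-fold. The intron, exon and 3' UTR medians lie at -0.38, -0.39 and -0.37 on the left and at 0.31, 0.08 and 0.00 on the right.

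The lower call with the most reads was an exon window of USP47 at chr11:11954912-11955330, with 32 reads with lactate and 114 with ddH2O and a log2 ratio of -1.17 (-1.82 to -0.63). With the sums it was -0.94 and no longer past 2-fold. An exon window of USP32, a membrane-associated enzyme, held 26 and 92 reads (-1.20, -1.93 to -0.60), and -0.92 with the sums. The USP47 3' UTR window at chr11:11958738-11959133 held 16 and 71 reads (-1.59, -2.54 to -0.86), and with -1.22 it was called under both scalings. USP47 also had the uncalled exon window of 202 and 498 reads (-0.27) between these places, so neighbouring windows of 1 transcript differed.

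A USP24 exon window at chr1:55097848-55098994 held 16 reads with lactate and 54 with ddH2O (-1.23, -2.20 to -0.47), and its fold over input was 4.03 and 19.8. USP48 had an exon window with 15 and 48 reads (-1.18, -2.18 to -0.38). USP13 had a 3' UTR window with 15 and 47 reads (-1.15, -2.16 to -0.35). These 3 windows were lower only with the authors' rescaling, at -0.83, -0.75 and -0.72 with the sums. The same held for a 3' UTR window of USP40 with 15 and 43 reads (-1.03, -2.05 to -0.22) and one of USP14 with 14 and 43 (-1.14, -2.19 to -0.30).

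The 26 calls made lower under both scalings lay on 16 genes. Besides the USP47 3' UTR window they held one in USP7 at chr16:8918856-8919272, with 5 reads with lactate and 44 with ddH2O, a ratio of -2.60 (-4.52 to -1.50) and -2.04 with the sums. The USP7 window at chr16:8915117-8915823, with the strongest deubiquitinase peak of the lactate list, held 134 and 244 reads and had a ratio of 0.03 (-0.29 to 0.34). Places within a few kb of each other on USP7 thus differed in their ratio.

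USP9X, a large X-linked enzyme that acts on MCL1, had an exon window at chrX:41215968-41216286 with 9 reads with lactate and 41 with ddH2O (-1.71, -3.05 to -0.76, and -1.21 with the sums). CYLD, which cuts the chains that carry NF-kappa B signals, had an exon window at chr16:50796451-50796965 with 7 and 36 reads (-1.89, -3.46 to -0.86, and -1.35 with the sums). That window also lies on the span of CYLD-AS2. The use of strand is not given in the sources used here, and without it reads of the pair cannot be told apart. USP21, another histone deubiquitinase, had its only merged peak lower, with 4 and 28 reads (-2.30, -4.55 to -1.06), in a stretch that reaches into the span of PPOX.

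JOSD1, of the Josephin family, had an intron window at chr22:38698863-38699411 with 1 read with lactate and 23 with ddH2O (-3.49, -9.79 to -1.80). Its larger 3' UTR window held 60 and 154 reads and was not called (-0.60, -1.07 to -0.18). USP37 had an intron window with 0 reads with lactate and 22 with ddH2O, which against the floor of 3 reads was at least 7.29-fold lower, or at least 4.03-fold with the sums. USP37 thus had windows called in each direction, and was 1 of 10 such member genes (16.7%, against 15.8% of protein-coding genes), or of 12 with the sums (12 of 60, against 13.4%).

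Windows with 0 reads need care in another respect. In 33 deubiquitinase windows, 25 of them in exons, a library had a called peak of its own and yet 0 reads in the window. This was 7 of 251 merged peaks with a lactate peak (2.79%, 1.36 to 5.64%) and 28 of 502 with a ddH2O peak (5.58%, 3.89 to 7.94%), against 1.75% and 2.43% over all merged peaks. Its cause was not tested. It touched 2 of the lower calls, a USP3 3' UTR window with 0 and 18 reads and a USP48 exon window with 0 and 17 reads, and without the 33 windows 19 merged peaks were higher and 84 lower, or 73 and 24 with the sums.

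The genes with the most merged peaks were USP34 with 57 (4 higher, 3 lower), USP32 with 31 (1 and 4), USP48 with 27 (0 and 6), USP7 with 26 (0 and 6), USP47 with 23 (1 and 3) and USP9X with 22 (1 and 4). With the sums USP34 had 11 higher and 3 lower, USP32 had 4 and 1, USP48 had 3 and 2, USP7 had 1 and 3, USP47 had 3 and 1, and USP9X had 1 and 2. The majority direction thus turned with the scaling in USP32, USP48 and USP47, and USP7 and USP9X had more lower than higher windows under both. The number of merged peaks rose with gene length across the 60 genes (Spearman rho 0.77, a description over genes that share the libraries, against 0.59 over all protein-coding genes). The median deubiquitinase gene had 8 merged peaks, against 4. At least 1 lower merged peak was found on 35 genes (58.3%, against a background of 46.7%) and at least 1 higher on 14 (23.3%, against 22.8%), and a gene with more windows has more chances of a call. With the sums, 34 genes (56.7%, against 40.4%) had a higher and 16 (26.7%, against 22.1%) a lower merged peak. Of the 36 genes with at least 5 windows, 33 had ratios of both signs. Their medians ran from -2.20 in OTUD3 to 0.69 in OTUD7A with the authors' rescaling. With the sums the median was -1.14 in OTUD3 and 1.60 in OTUD7A.

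The calls of other well-studied members rested on small windows. USP10, which acts on p53 and partners G3BP1, had 9 merged peaks with no call, or 1 higher with the sums, and its largest window held 78 reads with lactate and 280 with ddH2O (-0.99, -1.38 to -0.63), just short of 2-fold. USP14, which trims chains at the proteasome, had 7 lower calls among 20 merged peaks, several of them in windows that share reads, and 1 higher and 0 lower with the sums. Its largest windows, in the 3' UTR, held 206 and 407 reads (0.03, -0.22 to 0.27) and 204 and 393 (0.06, -0.19 to 0.30).

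USP15, placed by KEGG in mitophagy, had 17 merged peaks with 1 higher and 4 lower, or 3 and 2 with the sums. USP30, which opposes mitophagy at the mitochondrial membrane, had 1 merged peak, with 1 read with lactate and 11 with ddH2O (-2.57, -8.87 to -0.66), called with the authors' rescaling and not with the sums. USP28, an enzyme that acts on MYC, had 10 merged peaks with 1 lower. Its exon window with 11 and 6 reads had a ratio of 0.94 (-0.52 to 2.76), and with the sums that window was called higher (1.64, 0.18 to 3.46) and no window lower.

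OTUB1, which also blocks E2 enzymes, had 4 merged peaks. Its 3' UTR window held 88 reads with lactate and 108 with ddH2O (0.45, 0.03 to 0.87). None was called with the authors' rescaling, and an exon window with 11 and 5 reads was called higher with the sums alone (1.86, 0.36 to 3.88). OTUD5, which acts in antiviral signalling, had 45 and 93 reads in its 3' UTR window (-0.39, -0.95 to 0.13). An exon window with 0 reads with lactate and 8 with ddH2O was called lower, at least 2.87-fold against the floor, and was not called with the sums. ATXN3, the Josephin enzyme whose repeat expansion causes a spinocerebellar ataxia, had 35 and 35 reads in its 3' UTR window (0.50, -0.22 to 1.22). The equal reads gave a ratio above 0 because of the rescaling. Another ATXN3 window, also annotated as 3' UTR, held 1 and 8 reads and was called lower (-2.19, -8.49 to -0.12) with the authors' rescaling alone, and the median over the gene's 6 merged peaks was -1.34. With the sums 1 intron window, with 4 and 0 reads, was called higher.

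By family, the 46 USP genes had 528 merged peaks with 16 higher (3.03%) and 78 lower (14.8%) and a median log2 ratio of -0.41, beside 5.69%, 15.6% and -0.46 for all protein-coding genes. With the sums they had 63 higher (11.9%) and 24 lower (4.55%), beside 14.0% and 4.85%. The 8 OTU genes had 48 merged peaks with 2 higher and 4 lower (median -0.11), or 7 and 1 with the sums. The 2 UCH genes had 3 merged peaks with 1 higher and 0 lower under both scalings, and the 3 Josephin genes had 13 with 0 and 3 (-0.85), or 1 and 1. The last 3 families are too few for a share to be read.

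A list of 20 further genes held deubiquitinases outside the symbol rule, such as OTULIN, STAMBP and BRCC3, and also the related USPL1, a SUMO protease, and COPS5, which removes NEDD8. Of these, 17 had merged peaks, 122 in all with 4 higher (3.28%) and 23 lower (18.9%) and a median of -0.62. With the sums 12 were higher (9.84%) and 8 lower (6.56%). Of 20 partner genes of deubiquitinases, such as WDR48, G3BP1 and ASXL1, 19 had merged peaks, 223 in all with 14 higher (6.28%) and 31 lower (13.9%) and a median of -0.57, or 34 (15.2%) and 10 (4.48%) with the sums. Both lists can be read against the same shares of all protein-coding genes.

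The E2 and proteasome genes lay further from those shares than the deubiquitinase genes did in some of the counts. The 31 E2 genes (symbols with UBE2) had 363 merged peaks with 24 higher (6.61%) and 34 lower (9.37%, 6.78 to 12.8%) and a median of -0.02, or 68 higher (18.7%, 15.1 to 23.1%) and 5 lower (1.38%, 0.590 to 3.18%) with the sums. The 35 proteasome subunit genes had 179 with 1 higher (0.559%, 0.0987 to 3.10%) and 22 lower (12.3%) and a median of -0.48, or 11 higher (6.15%, 3.47 to 10.7%) and 9 lower (5.03%) with the sums. Of 7 ubiquitin and E1 genes, 4 had merged peaks, 12 in all with no call, or 1 higher with the sums. These differences between gene lists were not tested.

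The reads of the windows were unequal across regions. Intron windows made up 50.1% of the deubiquitinase merged peaks and held 19.9% of their reads with lactate and 14.2% with ddH2O, while exon windows held 40.2% and 45.6% and 3' UTR windows 39.5% and 39.5%. The ddH2O IP had 1.36 times the lactate reads in introns, 2.16 times in exons and 1.90 times in 3' UTRs, and the same ratios over all protein-coding genes were 1.38, 2.12 and 1.88. The 10 largest windows, on 8 genes, held 28.9% and 33.9% of the reads. Of the markers of ductal epithelium, KRT8 and KRT18 had the most reads, with 1819 and 4520 reads in KRT8 windows and 2737 and 8085 in that of KRT18. KRT19 had 92 and 248, KRT7 had 16 and 37, and EPCAM had 1 and 3. Of markers of other cells, CD3E, ALB, INS and PECAM1 had no peak and PTPRC had 1 with 0 and 3 reads.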

How the data were processed

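From each IP library and its input the authors made a peak list and deposited, for every peak, its fold over input (a ratio), p-value, q-value, their -log10 values and an annotation of gene and region. The submitters' processing notes name fastp 0.20.1, HISAT2 2.1.0, MACS2 2.2.7.1, bedtools 2.29.2, HOMER 4.11.1, DiffBind and GRCh38, without their roles. Both lists were merged and put through MAnorm by the authors, and for each IP library a normalized signal (read density) was deposited. The deposited log2 ratios and P-values of that comparison are the authors' own and were not used. The ratio was taken from the densities. Window reads were recovered from a density of reads plus 1 per kb, which gave whole numbers (within 0.02) in both libraries for 99.998% of windows, with a straight line of slope 0.17 in the mean log2 density and intercept -0.20 as the rescaling. On simulated data, 96.5% of 200 windows of at least 20 reads raised 4-fold were called higher, as were 0.727% of unchanged windows. The simulation gave both libraries equal expected reads in unchanged windows of any depth, with counting error alone and no rescaling. It held no spread between cultures, so 0.727% is not a false-call rate for the measured windows. Input depth is unknown.

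A merged peak took gene and region from the called peaks it overlapped by at least 1 base. Coordinates count from 1, on GRCh38. Peaks of antisense and pseudogene symbols (7 with lactate, 22 with ddH2O) were left out. On the span of another RefSeq gene lay 36 of the 607 merged peaks, with 0 higher and 5 lower calls, or 2 and 2 with the sums outside MT-RNR2 and MALAT1. The members and lists were chosen with earlier results of these data known. Genes were named if they had the most reads among called or all merged peaks, the most merged peaks or the highest folds, had peaks in 1 list, or stood in a list of well-studied enzymes. Other windows called under both scalings, and those with 0 reads, were named after their values were seen. No per-sample test was possible with 1 IP library per condition. Tables were made in Python 3.11.15 using pandas 2.3.3 and numpy 2.4.6, intervals with scipy 1.17.1, overlaps with bedtools 2.31.1 and plots with matplotlib 3.10.9.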

Additional observations from a re-analysis of the deposited data

How the results depend on the processing

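No paired analysis was possible because there was 1 IP library per condition and no result came from a test across replicates. Beside 19 higher and 86 lower merged peaks, scaling by the sums outside MT-RNR2 and MALAT1 gave 73 and 26, by the whole sums (chosen after seeing the data) 15 and 127, a 2-fold limit without the interval 77 and 214, at least 20 reads without the interval 6 and 43, exon and UTR peaks alone 1 and 53, and called peaks with q below 0.05 gave 9 and 57. A 4-fold limit left 51 lower. With the sums outside those genes, 26 lower calls remained and 60 lost the call. The median of -0.40 was 0.15 with those sums and -0.27 with at least 20 reads. The intron share of 49.0% with lactate was 33.6% at q below 0.05 and 39.2% at a fold over input of at least 4, and that of 45.1% with ddH2O was 35.5% and 36.5%. The 3' UTR share of 24.3% with lactate was 36.1% at q below 0.05, and that of 20.5% with ddH2O was 26.3% and, at a fold of at least 4, 27.6%. Shares of bases covered, a 50% overlap, leaving out USP6NL, and leaving out windows at 0 reads in a library with its own peak (chosen after seeing the data) kept their values within the limits set. Depth limits most windows, since 209 of 607 held at least 20 reads.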
